A study of Mus musculus with 15 samples.

Results

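The 10 genes described here encode proteins of the hyaluronan-based matrix that surrounds neurons, and of the enzyme complex that builds its chondroitin sulfate chains. They were taken by symbol from the 35976 genes of the count table: the link proteins Hapln1, Hapln2 and Hapln4, the lecticans Acan, Bcan, Ncan and Vcan, tenascin-R (Tnr), and the chondroitin polymerizing factors Chpf and Chpf2. All 10 were in the table and passed the filter on low counts in each comparison. The list was chosen by symbol with measured levels of these data already known, in which Hapln2 had been named for the sorted populations and Chpf2 for abstinence against maintenance. The values of Hapln2 between populations, and of Chpf2 wherever maintenance is compared, are therefore given as descriptions with no test.

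Perineuronal nets are dense lattices of this matrix on cell bodies and proximal dendrites, best known around fast-spiking, parvalbumin-positive neurons. Their backbone is hyaluronan, to which lecticans bind by their N-terminal domain. Link proteins lock that bond, tenascin-R joins the C-terminal ends of several lecticans, and the chondroitin sulfate chains carried by lecticans are assembled in the Golgi by chondroitin synthases together with Chpf and Chpf2. Looser matrix of similar make-up surrounds synapses, and a form rich in Hapln2 and versican lies at nodes of Ranvier. RNA levels say which cells make these secreted proteins, not where the proteins are deposited.

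The RNA came from nuclei of the ventral tegmental area of male mice aged 8 to 12 weeks that carried 1 copy of Cre in the dopamine transporter gene (heterozygotes of strain B6.SJL-Slc6a3tm1.1(cre)Bkmm/J). In every group the virus AAV5-DIO-KASH-HA, which tags the nuclear envelope of cells with Cre, had been injected 14 days before training. Each sample pooled tissue of 2 mice, and nuclei were sorted as HA-positive (dopaminergic) or HA-negative (non-dopaminergic). For dopaminergic nuclei there were 4 libraries of food-trained mice that had no cocaine, 3 of maintenance and 4 of abstinence. For non-dopaminergic nuclei there were 4, all of food-trained mice, and each stage used other mice. Maintenance mice had been food-trained and had then taken cocaine intravenously for 5 daily sessions at 0.3 mg/kg per infusion and for 10 at 1.0 mg/kg per infusion, with sessions of 1 hour. Abstinence mice had the same history followed by 21 days in the home cage.

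Libraries held 25813697 to 59046618 counts, and levels are given as counts per 1000000 counts of the library (CPM), scaled with TMM factors of all 15 libraries. The 10 dopamine neuron markers summed to 5801 to 12401 CPM in dopaminergic and 351 to 536 CPM in non-dopaminergic libraries, and no marker was at 0 in any library. The labels call both populations neurons, but 10 oligodendrocyte markers summed to 9476 to 24329 CPM in non-dopaminergic and 1189 to 2874 CPM in dopaminergic libraries. The ranges were 1676 to 3236 against 587 to 1027 CPM for 8 astrocyte markers, 1579 to 3089 against 469.6 to 1014 CPM for 7 microglia markers, and 257 to 384 against 23.6 to 97.3 CPM for 7 oligodendrocyte precursor markers. Vascular markers (6 genes) summed to 233 to 443 against 9.84 to 184 CPM, while GABA neuron markers (4 genes, 693 to 1465 against 356 to 1377 CPM) and markers of fast-spiking neurons (4 genes, 834 to 1261 against 591 to 1872 CPM) overlapped between the populations. In RNA pooled from many nuclei, fewer cells of a type and less RNA per cell cannot be told apart.

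The libraries differed in how level depended on transcript GC content. The slope of log2 CPM on GC content was -0.0379 to -0.0225 per percent GC in the 3 maintenance libraries and -0.0247 in non-dopaminergic replicate 2. It was -0.0166 to 0.0205 in the other dopaminergic libraries and 0.021 to 0.0324 in the other non-dopaminergic ones. The longest transcripts of the 10 genes span 39.8% GC in Hapln1 and 43.7% in Vcan to 58.0% in Chpf, 58.4% in Chpf2 and 60.7% in Bcan, so values at maintenance are given below beside those of non-dopaminergic replicate 2.

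Of the 10 genes, 6 lie in pairs of one link protein and one lectican, with no other coding gene between them in GENCODE M21 (GRCm38). Hapln1 (chr13:89539796-89611652, plus strand) ends 43660 bases from Vcan (chr13:89655312-89742509, minus strand). Hapln2 (chr3:88021750-88027583) and Bcan (chr3:87987531-88000230) are both on the minus strand of chromosome 3, 21520 bases apart. Hapln4 (chr8:70083457-70090862, plus strand) and Ncan (chr8:70093085-70120873, minus strand) face each other tail to tail across 2223 bases. Acan is at chr7:79053483-79115099, Tnr at chr1:159523769-159931729 and Chpf at chr1:75474569-75479307. Chpf2, at chr5:24586741-24594556 on the plus strand, overlaps Smarcd3 on the minus strand, and antisense genes overlap Vcan and Tnr. Whether counting used strand is not given in the sources used here, so reads in these overlaps cannot be assigned with certainty.

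The 250 bases before the RefSeq transcription start (GRCm38.p6) are shown for 4 genes: Chpf, Chpf2 and Bcan, whose abstinence and maintenance levels did not overlap, and Tnr, which passed the test between populations. Capitals mark CG dinucleotides, which read the same on both strands and do not overlap one another.
Chpf, chr1:75479472-75479721, minus strand: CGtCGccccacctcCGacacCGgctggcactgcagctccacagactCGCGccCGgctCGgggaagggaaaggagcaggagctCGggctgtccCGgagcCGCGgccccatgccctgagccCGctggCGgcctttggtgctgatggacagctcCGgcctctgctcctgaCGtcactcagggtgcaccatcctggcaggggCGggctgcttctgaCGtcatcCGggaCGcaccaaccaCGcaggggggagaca
Chpf2, chr5:24586494-24586743, plus strand: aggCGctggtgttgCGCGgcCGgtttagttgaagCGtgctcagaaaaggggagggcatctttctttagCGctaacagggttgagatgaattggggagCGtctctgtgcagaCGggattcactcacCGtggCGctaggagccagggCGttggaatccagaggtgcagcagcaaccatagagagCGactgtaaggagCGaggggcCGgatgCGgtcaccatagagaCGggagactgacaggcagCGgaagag
Bcan, chr3:88000357-88000606, minus strand: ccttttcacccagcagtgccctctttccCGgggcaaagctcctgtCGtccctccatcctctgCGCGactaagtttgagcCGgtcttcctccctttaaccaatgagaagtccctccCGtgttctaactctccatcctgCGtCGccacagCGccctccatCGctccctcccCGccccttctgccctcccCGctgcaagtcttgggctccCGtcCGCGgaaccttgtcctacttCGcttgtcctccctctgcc
Tnr, chr1:159523519-159523768, plus strand: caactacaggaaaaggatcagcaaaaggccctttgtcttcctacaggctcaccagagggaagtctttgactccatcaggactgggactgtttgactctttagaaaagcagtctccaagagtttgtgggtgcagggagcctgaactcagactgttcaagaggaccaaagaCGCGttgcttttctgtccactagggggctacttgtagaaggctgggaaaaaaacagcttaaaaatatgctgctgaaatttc
At least 1 CG was present in 92.1% of all 32851 promoter windows of this length, with a median of 6. The Chpf window held 21, that of Chpf2 17 and that of Bcan 16, more than in 83.7%, 76.5% and 74.6% of windows. Tnr held 2, more than in 18.8% of windows, as did Hapln1 and Hapln2. The windows of Acan, Vcan and Ncan held 26, 10 and 6. A promoter of Hapln4 was not analysed here.

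**Figure D1:**
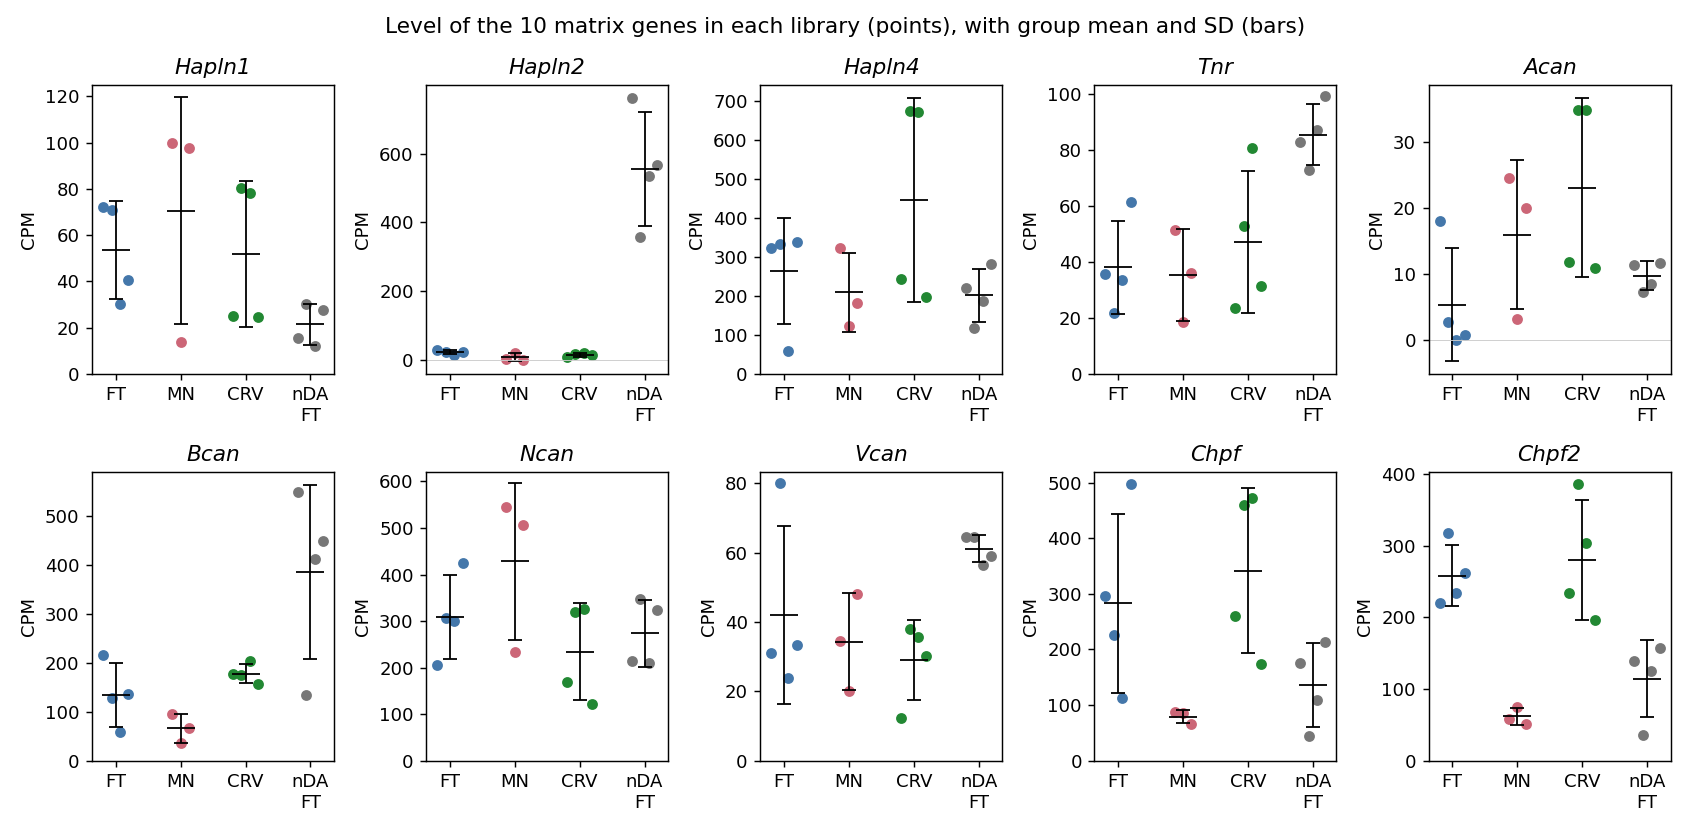
Level of each gene in CPM (vertical axis) in every library (points), by group: dopaminergic nuclei after food training (FT, n = 4), maintenance (MN, n = 3) and abstinence (CRV, n = 4), with the 4 non-dopaminergic libraries as nDA FT; bars are group means ± SD. Hapln2 and Tnr were higher in every non-dopaminergic than in every food-trained dopaminergic library, and the 3 maintenance values of Chpf and Chpf2 lie under all values of the other dopaminergic stages.

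The first comparison asked which of these genes differ between the sorted populations of food-trained mice. Hapln2, known beforehand, is left out of the counts. Of the other 9 genes, 1 had an edgeR adjusted p under 0.05, Tnr, which was lower in dopaminergic nuclei. Over the 19786 genes tested, 12.8% were called and 9.17% were called lower, a balance that turned in 2 alternative fits (413 higher and 362 lower with the replicate number as a block, 568 and 397 with a term shared by maintenance and non-dopaminergic replicate 2). An unadjusted p under 0.05 was reached by 4 of the 9, beside 24.3% of all genes, and the DESeq2 test called 4 (Tnr, Hapln1, Bcan and Chpf2), beside 19.6%. The groups did not overlap for 3 of the 9, beside 25.9% of all genes: Tnr was lower (19.1% of all genes) and Hapln1 and Chpf2 were higher (6.87%). The median log2 fold change of the 9 was 0.15, beside -0.21 for all genes tested.

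Among the link proteins, Hapln2 is described without a test, and Hapln1 and Hapln4 did not pass. Hapln2, the link protein made by oligodendrocytes at nodes of Ranvier, stood at 29.5, 24.4, 16.1 and 23.9 CPM in dopaminergic replicates 1 to 4. In non-dopaminergic replicates 1 to 4 it stood at 761, 359, 536 and 567 CPM, far above every dopaminergic value. Its log2 fold change was -4.59 (SE 0.31), in the direction of the oligodendrocyte markers, of which 10 of 10 were lower in dopaminergic nuclei and 7 passed. The part of oligodendrocyte nuclei in its level was not tested. Non-dopaminergic replicate 2, which had the highest oligodendrocyte sum (24329 CPM), had the lowest Hapln2 of the 4.

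Hapln1, the link protein of cartilage and of perineuronal nets, went the other way. It stood at 72.3, 71.0, 30.4 and 40.6 CPM in dopaminergic and at 15.5, 30.2, 12.0 and 27.8 CPM in non-dopaminergic replicates 1 to 4. Every dopaminergic library was above every non-dopaminergic one, though the nearest values, 30.4 and 30.2 CPM, all but met. The log2 fold change of 1.30 (SE 0.41) did not pass (edgeR adjusted p 0.0723), and without dopaminergic replicate 3 it was 1.52 and passed (edgeR adjusted p 0.0291). Hapln4, a link protein of nets in the brainstem and cerebellum, overlapped between the populations, with 59.1 to 337 CPM in dopaminergic and 119 to 282 CPM in non-dopaminergic libraries (log2 fold change 0.36, SE 0.50, edgeR adjusted p 0.741).

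Tnr, the cross-linker made largely by oligodendrocyte-lineage cells and some neurons, stood at 35.7, 21.8, 33.6 and 61.2 CPM in dopaminergic and 82.8, 72.6, 87.1 and 99.1 CPM in non-dopaminergic libraries. The populations did not overlap. The log2 fold change of -1.19 (SE 0.31) passed with an edgeR adjusted p of 0.0362. The call was lost without dopaminergic replicate 1 (0.0719) or 3 (0.0607) or any of the non-dopaminergic replicates 1 to 4 (0.0881, 0.0515, 0.0918 and 0.098). It was also lost in a fit of all 15 libraries (edgeR adjusted p 0.0789), where Bcan (0.0427) and Chpf2 (0.0488) passed, and with a term shared by the maintenance libraries and non-dopaminergic replicate 2 (0.106). The fold change kept its direction in these fits.

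Among the lecticans none passed. Bcan, brevican, made by astrocytes and oligodendrocyte precursors as well as neurons, was at 57.8 to 217 CPM in dopaminergic nuclei. In non-dopaminergic nuclei it was at 550, 413 and 449 CPM in replicates 1, 3 and 4 and at 133 CPM in replicate 2, which fell inside the dopaminergic range. Its log2 fold change was -1.55 (SE 0.49, edgeR adjusted p 0.0758). It was -1.83 and passed without non-dopaminergic replicate 2 (edgeR adjusted p 0.0205), and -1.87 and passed without dopaminergic replicate 1 (0.0484). Vcan, versican, a marker of oligodendrocyte precursors in adult brain, was at 56.6 to 64.4 CPM in non-dopaminergic nuclei and at 31.1, 80.0, 23.8 and 33.3 CPM in dopaminergic nuclei. The log2 fold change was -0.56 (SE 0.37, edgeR adjusted p 0.410). Without dopaminergic replicate 2, the one high library, it was -1.08 and passed (edgeR adjusted p 0.0138). The summed astrocyte and oligodendrocyte precursor markers were higher in every non-dopaminergic than in every dopaminergic library, and their part in the levels of Bcan, Vcan and Tnr was not tested.

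Ncan, neurocan, a lectican of neurons and astrocytes, overlapped as well, with means of 309 ± 90.3 CPM in the dopaminergic and 274 ± 71.7 CPM in the non-dopaminergic group (SD of 4 libraries). The log2 fold change of 0.15 (SE 0.27) had an edgeR adjusted p of 0.802. Acan, aggrecan, the lectican used to identify perineuronal nets, was the scarcest of the 10 per transcript length in both populations of food-trained mice. It had 18.0, 2.75, 0 and 0.761 CPM in the 4 dopaminergic libraries and 7.29 to 11.7 CPM in the non-dopaminergic ones. A single library, dopaminergic replicate 1, held most of the dopaminergic signal (log2 fold change -0.88, SE 1.41, edgeR adjusted p 0.782). Without it the log2 fold change was -3.08 (edgeR adjusted p 0.207).

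The polymerizing factors were both higher in dopaminergic nuclei on average. Chpf stood at 296, 226, 112 and 497 CPM in dopaminergic and 176, 43.4, 108 and 214 CPM in non-dopaminergic replicates 1 to 4, and the ranges overlapped (log2 fold change 1.04, SE 0.55, edgeR adjusted p 0.294). Chpf2 stood at 220, 317, 234 and 262 CPM in dopaminergic and 140, 35.7, 126 and 157 CPM in non-dopaminergic nuclei, without overlap. Its log2 fold change of 1.15 (SE 0.40) did not pass (edgeR adjusted p 0.107). Without non-dopaminergic replicate 2, the lowest library for both genes, it was 0.85 and passed (0.0241).

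Hapln3, the remaining link protein gene, is not among the 10 and was near the limit of detection, at 0 to 2.63 CPM in dopaminergic and 0.538 to 2.60 CPM in non-dopaminergic libraries of food-trained mice.

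Levels per kilobase of longest transcript, which allow different genes to be set side by side, are given from highest to lowest for food-trained dopaminergic nuclei. Chpf (84.9 ± 48.5 CPM per kilobase, SD, n = 4), Hapln4 (72.2 ± 37.3), Chpf2 (48.1 ± 8.00), Ncan (43.0 ± 12.5) and Bcan (42.9 ± 20.7) stood highest, and neighbours among them did not differ beyond their SD. Hapln2 (10.1 ± 2.37), Hapln1 (9.37 ± 3.73), Vcan (3.38 ± 2.06), Tnr (3.12 ± 1.36) and Acan (0.730 ± 1.15) followed. In non-dopaminergic nuclei Hapln2 led with 238 ± 70.5 CPM per kilobase and Bcan followed with 123 ± 56.8, ahead of Hapln4 at 55.3 ± 18.6 and Chpf at 40.7 ± 22.7.

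**Figure D2:**
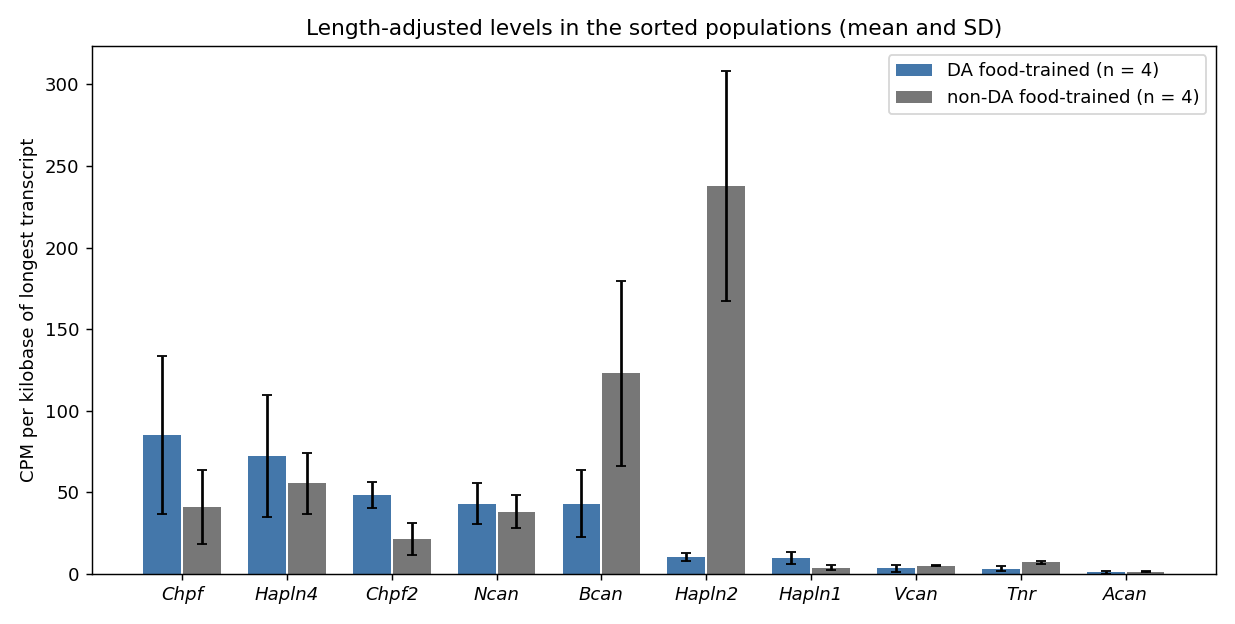
Mean level per kilobase of longest annotated transcript (vertical axis, CPM per kilobase, starting at 0) in dopaminergic and non-dopaminergic nuclei of food-trained mice, 4 libraries each; error bars are SD. Chpf and Hapln4 lead in dopaminergic nuclei, and Hapln2 and Bcan in non-dopaminergic nuclei.

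Genes that make, modify, bind or cut the same matrix were counted beside the 10 in this comparison, in 6 lists. Over the lists edgeR called 7 of 54 genes tested (13%), beside 12.8% of all genes, and nothing is read from 2 of the 7, Tnc and Adamts4, which passed the filter on low counts only through the non-dopaminergic libraries. Of 6 tested genes of hyaluronan synthesis and turnover, 1 was higher in dopaminergic nuclei: Hyal2, a hyaluronidase, at 88.7 ± 28.7 against 38.7 ± 6.12 CPM (SD, n = 4 each; edgeR adjusted p 0.0155). Of 10 genes that start and extend chondroitin chains, 1 was higher, the linker glucuronyltransferase B3gat3 (106 ± 11.2 against 49.7 ± 10.2 CPM, edgeR adjusted p 0.00787), and 1 lower, Csgalnact1, which adds the first chain sugar (7.37 ± 3.26 against 34.9 ± 9.01 CPM, edgeR adjusted p 0.00725). Of 11 genes of chain sulfation and epimerization, Dsel, an epimerase, was higher at 97.5 ± 4.01 against 49.9 ± 7.34 CPM (edgeR adjusted p 0.00716).

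Among 10 other matrix proteoglycans and partners, tenascin-C (Tnc) was at 0 to 0.152 CPM in dopaminergic and 7.13 to 11.9 CPM in non-dopaminergic libraries. Among 13 matrix proteases and inhibitors, the lectican-cleaving protease Adamts4 was at 0 to 1.48 against 41.9 to 127 CPM. The inhibitor Timp3 was lower in dopaminergic nuclei at 70.8 ± 24.1 against 297 ± 49.1 CPM (SD, n = 4 each; edgeR adjusted p 0.00605). The 4 chondroitin sulfate receptor genes had 0 calls in edgeR's test, 0 in the DESeq2 test and 0 at an unadjusted p under 0.05.

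The second comparison asked which genes differ after cocaine maintenance. The polymerizing factors had the largest negative fold changes of the set there: all 3 maintenance libraries were below all 8 other dopaminergic libraries in Chpf and in Chpf2. Chpf2, known beforehand, is left out of the counts. Of the other 9 genes, 0 were called by edgeR, 1 (Chpf) was called by the DESeq2 test and 2 had an unadjusted p under 0.05. Over all 19060 genes edgeR called 0.131%, of them lower 0.126%, the DESeq2 test called 5.2%, and 11.6% had an unadjusted p under 0.05. The median log2 fold change of these 9 was -0.29, beside -0.01 for all genes tested. The groups did not overlap for 1 of the 9, Chpf, which was lower, beside 8.49% of all genes and 4.21% that were lower.

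Chpf2 stood at 58.5, 75.2 and 51.7 CPM in maintenance replicates 1 to 3, against 220 to 317 CPM after food training and 196 to 386 CPM after abstinence. Its log2 fold change was -2.06 (SE 0.29) against food training, a 4.18-fold lower level, and abstinence was 2.18 (SE 0.29) above maintenance. Chpf stood at 86.7, 85.9 and 65.0 CPM at maintenance, against 112 to 497 CPM after food training and 175 to 472 CPM after abstinence. Its log2 fold change of -1.84 (SE 0.47), a 3.57-fold lower level, did not pass against food training (edgeR adjusted p 0.163). At abstinence the fitted level was 2.11 above maintenance (SE 0.47), which did not pass either (edgeR adjusted p 0.127). Without maintenance replicate 1 the log2 fold change of Chpf2 against food training was -2.03, and without replicate 3 it was -1.95. Smarcd3, the gene that overlaps Chpf2, was at 7.25 to 23.4 CPM at maintenance and 5.56 to 14.4 CPM after food training. It was scarcer than Chpf2 at both stages, and its level cannot show how reads in the overlap were assigned.

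The same 2 genes were also low in a library of food-trained mice. Non-dopaminergic replicate 2 held 43.4 CPM of Chpf and 35.7 CPM of Chpf2, against 108 to 214 and 126 to 157 CPM in the other 3 non-dopaminergic libraries. On the log2 scale that library was 1.88 (Chpf) and 1.97 (Chpf2) below the mean of the other 3, near the fitted differences at maintenance. In 8 of the 10 genes the direction in this library was that of maintenance against food training, the exceptions being Acan and Vcan, compared with 64.4% of 18372 genes. That count includes Chpf2, which was known beforehand, and nothing is read from it. A fit of all 15 libraries with a term shared by the maintenance libraries and non-dopaminergic replicate 2 gave log2 fold changes at maintenance of -0.09 (SE 0.44) for Chpf2 and 0.10 (SE 0.79) for Chpf. That term rests on 1 non-dopaminergic library, and within these 4 libraries maintenance cannot be compared with another stage of dopaminergic nuclei.

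Transcript GC content also moved with the change at maintenance. Among tested genes above a mean log2 CPM of 4, the median log2 fold change was 0.15 for the 564 genes under 40% GC. It was -0.35 for the 1308 genes from 55 to 60% and -0.74 for the 262 genes of at least 60%. Chpf, Chpf2, Hapln2, Hapln4 and Ncan lie in the bin from 55 to 60%, where 3.82% of genes had a lower value than Chpf, while Ncan was on the other side of 0. Chpf2, known beforehand, is not ranked. With a correction for GC content in each library, the log2 fold change at maintenance was -1.75 (SE 0.28) for Chpf2 and -1.48 (SE 0.42) for Chpf. Stage, GC slope and any shared handling of the maintenance libraries cannot be told apart in this design.

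**Figure D3:**
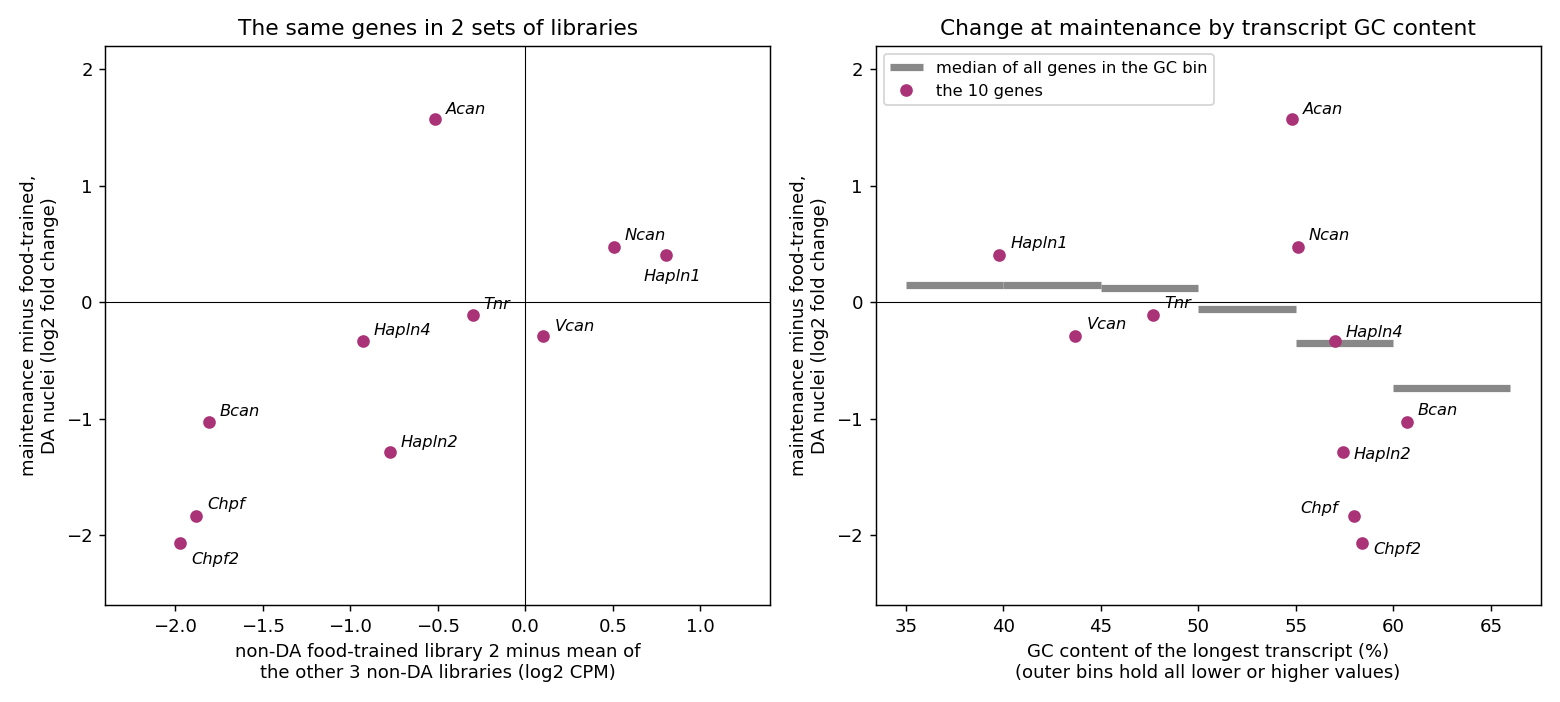
Left: fitted log2 fold change at maintenance against food training in dopaminergic nuclei (vertical axis) and log2 CPM of non-dopaminergic replicate 2 minus the mean of the other 3 non-dopaminergic libraries (horizontal axis), 1 point per gene. Right: the same change against GC content of the longest transcript, with grey bars for the median of all genes in each GC bin; Chpf and Chpf2 lie at the lower left on the left side and below the grey bar of their bin on the right side.

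Bcan had its lowest dopaminergic mean at maintenance, at 95.1, 35.9 and 67.0 CPM, against 57.8 to 217 CPM after food training. The log2 fold change was -1.03 (SE 0.40, edgeR adjusted p 0.394), and food-trained replicate 3 lay within the maintenance range. Non-dopaminergic replicate 2 was low in Bcan as well, by 1.81 on the log2 scale, and with the GC correction the change at maintenance was -0.55 (SE 0.38). Ncan, the partner of Hapln4 on chromosome 8, was at 545, 234 and 506 CPM at maintenance and 205 to 425 CPM after food training (log2 fold change 0.47, SE 0.39, edgeR adjusted p 0.780). Its level in non-dopaminergic replicate 2, 347 CPM, was above the 210.5 to 323 CPM of the other 3 libraries.

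The other 6 genes overlapped between maintenance and food training, with edgeR adjusted p from 0.521 (Hapln2) to 0.991 (Tnr). Hapln2 was at 5.02, 22.1 and 1.97 CPM at maintenance, so 2 of 3 libraries lay below every food-trained one (log2 fold change -1.29, SE 0.72). Without maintenance replicate 2, the one library within the food-trained range, it was -2.77 (edgeR adjusted p 0.150). The oligodendrocyte markers summed to 1240 to 1855 CPM in these libraries and 1861 to 2874 CPM after food training, and their part in the Hapln2 value was not tested. Hapln1 was at 99.9 and 97.8 CPM in maintenance replicates 1 and 3 and at 13.9 CPM in replicate 2. Acan was at 24.6 and 19.99 CPM in the same replicates 1 and 3 and at 3.17 CPM in replicate 2, with a log2 fold change of 1.57 (SE 1.32) against food training and of 3.77 without food-trained replicate 1. Maintenance replicate 2 was the lowest of its group in 7 of the 10 genes, also in Hapln4 (123 CPM), Bcan, Ncan, Vcan (20.1 CPM) and Tnr (18.4 CPM), where 26.2% of all genes were lowest there, and the highest in 2, Hapln2 and Chpf2, where 36.3% of all genes were highest there. It was the shallowest of the 3 libraries, with 32032303 counts. Its markers of fast-spiking neurons summed to 591 CPM, against 1285 and 1076 CPM in replicates 1 and 3, and those of GABA neurons to 356 CPM, against 815 and 492 CPM. The part of depth or of cell makeup was not tested.

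The third comparison asked which genes differ between food-trained mice and those with 21 days of abstinence. Of the 10 genes, 0 passed in edgeR's test, 0 had an unadjusted p under 0.05 and 0 passed in the DESeq2 test, and the groups overlapped for all 10 (3.32% of all genes did not). Over all 19060 genes 0% were called by edgeR, 4.3% had an unadjusted p under 0.05, and the DESeq2 test called 145 (0.761%). Acan had the lowest unadjusted p of the set. It stood at 11.8, 34.8, 34.7 and 10.9 CPM in abstinence replicates 1 to 4, against 0 to 18.0 CPM after food training. Only food-trained replicate 1 reached into the abstinence range, and the log2 fold change of 2.099 (SE 1.27) had an edgeR adjusted p of 0.999974. Without that library it was 4.29, with an edgeR adjusted p of 0.948.

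Nearly all of the genes split the abstinence libraries in the same way. Replicates 2 and 3 held 80.2 and 78.2 CPM of Hapln1, against 24.8 and 24.5 CPM in replicates 1 and 4. Hapln4 stood at 673 CPM in each of replicates 2 and 3, against 243 and 198 CPM in replicates 1 and 4, and 9 of the 10 genes, all but Bcan, were higher in both of replicates 2 and 3 than in replicates 1 and 4. That order held in 22.5% of the 19060 genes of the fit. Replicates 2 and 3 were the deeper ones, with 59046618 and 57176080 counts against 42703030 and 37314334. Their GC slopes were 0.0087 and 0.0205, against -0.0019 and -0.0011 in replicates 1 and 4. The markers of fast-spiking neurons summed to 1379 and 1872 CPM in replicates 2 and 3, against 846 and 860 CPM in replicates 1 and 4. The markers of GABA neurons summed to 1377 and 1089 CPM, against 623 and 592 CPM. The part of depth, GC slope or cell makeup in this split was not tested. Bcan was the steadiest of the set at abstinence, at 176, 175, 204 and 157 CPM. Ncan stood at 121 to 326 CPM, Vcan at 12.4 to 38.1 CPM, Tnr at 23.7 to 80.6 CPM and Hapln2 at 9.13 to 20.1 CPM, each overlapping its food-trained range.

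Abstinence was also compared with maintenance, the stage before it. Chpf2 is again left out of the counts. Of the other 9 genes, 0 were called by edgeR, 2 (Chpf and Bcan) were called by the DESeq2 test and 3 had an unadjusted p under 0.05. Over all 19060 genes edgeR called 0.178%, of them higher 0.168%, the DESeq2 test called 4.16%, and 9.92% had an unadjusted p under 0.05. The groups did not overlap for 2 of the 9, Chpf and Bcan, both higher at abstinence, beside 12.1% of all genes and 7.56% that were higher. These are the maintenance libraries of the second comparison, so the same low values enter both. Bcan was higher by a log2 fold change of 1.43 (SE 0.41), which did not pass (edgeR adjusted p 0.264), and Ncan was 0.88 lower (log2 fold change -0.88, SE 0.39, edgeR adjusted p 0.492). Hapln4 was higher by 1.09 (SE 0.59, edgeR adjusted p 0.586), with overlap. The remaining 5 genes overlapped, with edgeR adjusted p from 0.953 to 0.999661.

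**Figure D4:**
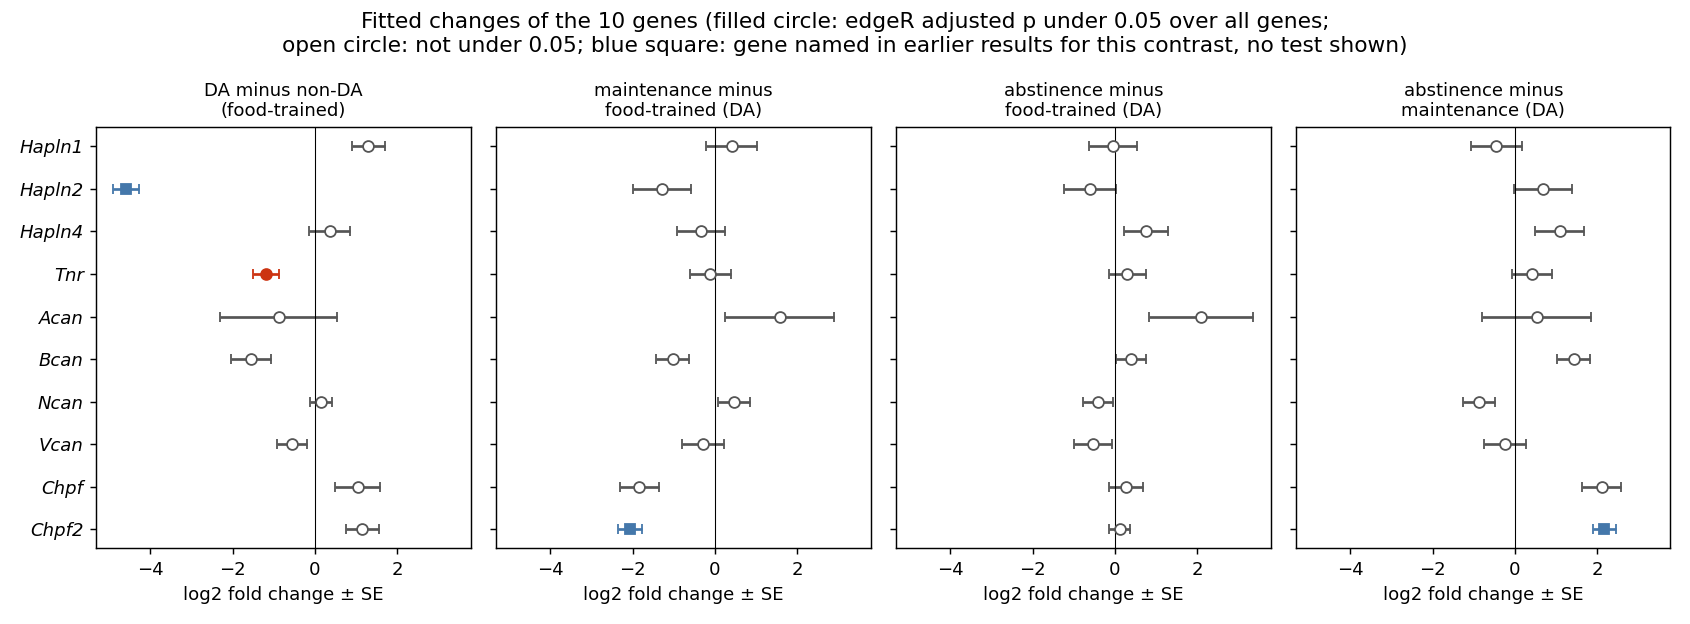
Fitted log2 fold changes (horizontal axis) with SE bars for the 10 genes (rows) in 4 comparisons (columns). Filled circles mark an edgeR adjusted p under 0.05 over all genes, open circles mark the others, and blue squares mark a gene named in earlier results for that contrast, for which no test is shown; Tnr between the populations is the one filled circle.

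In the lists of related genes, 0 of the 53 tested were called by edgeR between maintenance and food training, with 2 at an unadjusted p under 0.05 and 3 called by the DESeq2 test (11.6% and 5.2% of all genes). Abstinence against food training gave 0, 3 and 0 in that order (4.3% and 0.761% of all genes for the last 2), and abstinence against maintenance 0, 6 and 4 (9.92% and 4.16%). Ptprs, the chondroitin sulfate receptor PTPσ, was at 280 to 459 CPM in maintenance and 534 to 717 CPM in food-trained libraries, without overlap (edgeR adjusted p 0.349). Xylt2, which starts the chains, stood at 22.8 ± 7.17 and 47.4 ± 23.1 CPM (edgeR adjusted p 0.400). Chsy1, a chondroitin synthase, was at 28.2 to 69.3 CPM at maintenance and 11.4 to 22.3 CPM at abstinence (edgeR adjusted p 0.417), opposite in direction to Chpf and Chpf2. The synthase Chsy3 went in their direction, at 3.03 to 23.0 and 15.2 to 81.7 CPM (edgeR adjusted p 0.451). So did Xylt2, at 37.0 to 93.1 CPM at abstinence (edgeR adjusted p 0.280). Of the 10 genes that start and extend chains, 7 were higher and 3 lower at abstinence than at maintenance. Csgalnact2, which like Csgalnact1 adds the first chain sugar, had the lowest p of these genes between abstinence (29.1 to 65.7 CPM) and food training (9.41 to 34.0 CPM) and did not pass (edgeR adjusted p 0.999974). Tnc stood at 0.311 to 10.4 CPM at abstinence and 0 to 0.152 CPM after food training.

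Over the 15 libraries, each of the 10 genes was set against 15831 other named genes by Pearson's r of log2 CPM, as a description in which the points share libraries, depth and GC slope. Nearest to Hapln2 were Mag (r = 0.959), a myelin glycoprotein, Map7 (0.948) and Phldb1 (0.944). Among the nearest to Bcan were Slc6a11 (0.944), the astrocyte GABA transporter, and Pde4a (0.907). Chpf was most like Scap (0.972), Cbarp (0.956) and Creld1 (0.954), and Chpf2 like Svop (0.966), Plppr3 (0.964) and Gpr162 (0.961). The nearest genes were Ube4a for Hapln1 (0.940), Slc39a7 for Hapln4 (0.928), Efcab2 for Acan (0.916), Itm2a for Ncan (0.877), Pde8a for Vcan (0.881) and Slc22a8 for Tnr (0.930). Within the set, Chpf and Chpf2 had the highest r (0.895). Over the 11 dopaminergic libraries alone it was 0.861. For chromosomal neighbours the value depended on whether non-dopaminergic libraries were included: it was 0.107 over 15 and 0.688 over 11 libraries for Hapln1 and Vcan, and 0.704 over 15 and 0.294 over 11 for Hapln2 and Bcan. For Hapln4 and Ncan it was 0.152 and 0.174.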

How the data were processed

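The authors deposited read counts by gene, whole numbers and not normalized, for all 15 samples. The submitters' processing notes name Trim Galore 0.6.7, cutadapt 1.18, STAR 2.7.10a, StringTie 2.1.5 and DESeq2 1.38.3 with mm10/GRCm38. The annotation and the strand setting are not given in the sources used here. A second deposited table, named as normalized, differed in 0 cells from these counts in its 10 columns and was not used.

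Counts were analysed with edgeR 4.0.16 (R 4.3.3): filterByExpr, TMM, quasi-likelihood F-test, two-sided, Benjamini-Hochberg over all genes at 0.05. Populations were fitted on 8 food-trained libraries and stages on all 11 dopaminergic libraries. The SE is the log2 fold change divided by the square root of F. Correlations used log2 CPM with a prior count of 2. GC content and length are those of the longest GENCODE M21 transcript (26763 symbols matched directly, 17 through a synonym, 9196 had none, all 10 genes matched). The GC slope rests on genes with a mean log2 CPM over 4. Scripts were tested on simulated data. Libraries were amplified without molecular identifiers, so depth limits counting error only, and p-values measure the spread between pools of 2 mice.

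The members, the 6 lists of related genes, the 8 cell type lists and the alternatives were chosen with earlier results of these data known. All 10 members are named, related genes where called, and otherwise at most the 3 with the lowest p-values of their list, and the 3 nearest genes by correlation for members with a mean of at least 20 counts. Of these nearest genes, 1 is not reported here.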

Additional observations from a re-analysis of the deposited data

Results flagged for a closer look

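In 30 groups of 4 libraries (10 genes in food-trained and abstinence dopaminergic nuclei and in non-dopaminergic nuclei), 3 held a library far from the rest, where Dixon's test at its 95% level flags about 1 in 20 by chance. All 3 were food-trained dopaminergic libraries, and each was a different one. Hapln4 stood at 59.1 CPM in replicate 3, against 323 to 337 CPM in the other 3. Acan stood at 18.0 CPM in replicate 1, against 0 to 2.75 CPM in the others. Vcan stood at 80.0 CPM in replicate 2, against 23.8 to 33.3 CPM in the others. Replicate 3 was the shallowest of all libraries, with 25813697 counts. The part of depth in these values was not tested.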

How the results depend on the processing

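Between populations the number of the 10 genes called was 2, and 5 with the DESeq2 test (Hapln1, Bcan and Chpf2 besides). Leaving out 1 library gave 1 to 3. For maintenance against food training it was 1, then 2 with the DESeq2 test (Chpf besides) and 0 with the replicate block, with all 15 libraries or with the term shared by the maintenance libraries and non-dopaminergic replicate 2, and 0 to 1 leaving out a library. Abstinence against maintenance gave 1, then 3 with the DESeq2 test (Chpf and Bcan besides) and 0 with the replicate block, with all 15 libraries or with the shared term, and 0 to 1 leaving out a library. These counts include Hapln2 between populations and Chpf2 wherever maintenance enters, which were known beforehand and from which nothing is read. Between populations, all 15 libraries gave 3, with Bcan and Chpf2 in and Tnr out, and the shared term 2, with Bcan in and Tnr out. The causes were not tested. DESeq2 size factors, no filter and the GC correction left these counts within 1.5 times, and abstinence against food training stayed at 0 in every fit.

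Over all genes the calls between populations were 2534 (719 higher, 1815 lower), against 3883 with the DESeq2 test. With the replicate block they were 775 (413 higher, 362 lower) and with the shared term 965 (568 higher, 397 lower), so the excess of lower calls turned. At maintenance they were 25, against 992 with the DESeq2 test, 0 with the block and 0 with the shared term, and 5 (without maintenance replicate 1) to 78 (without maintenance replicate 2). For abstinence against maintenance they were 34, against 792, 2 and 1 in that order, 15 with all 15 libraries, and 6 to 73. Abstinence against food training gave 0, and 145 with the DESeq2 test.

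With the shared term, the direction at maintenance turned for Hapln1 (-0.32), Hapln4 (0.61), Bcan (0.79), Ncan (-0.0094), Tnr (0.19) and Chpf (0.10). From maintenance to abstinence it turned for Hapln1 (0.27), Hapln2 (-0.11) and Bcan (-0.39). The GC correction turned Hapln1 at abstinence against food training (0.0057). Leaving out a library turned values that had not passed: Ncan between populations (-0.047 to 0.31), Vcan (-0.62 to 0.20) and Tnr (-0.49 to 0.22) at maintenance, Hapln1 (-0.34 to 0.19), Chpf2 (-0.084 to 0.25) and Tnr (-0.088 to 0.63) at abstinence against food training, and Vcan from maintenance to abstinence (-0.49 to 0.088).

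Same-numbered samples had correlations of their deviations from group means of 0.021 to 0.069 between populations and -0.066 to 0.03 between stages. Between populations, differently numbered samples had -0.046 to 0.041. The labels do not say whether same-numbered samples of the populations came from the same mice. These small values do not settle it, and the main fits assumed no pairing.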
